A study of Mus musculus with 36 samples.

Results

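Lcn2, Havcr1, Spp1, Clu, Vcam1, Anxa2 and Sox9 are genes whose transcripts are widely used as signs of damaged kidney tubules. They were followed in kidneys that lose Pkd1 or Pkd2 in the collecting duct. The 7 genes were chosen by name, from 20458 genes with at least 1 RefSeq transcript in the deposited table of read counts, and the transcript with the highest mean count stood for each gene. Only 6 of the 7 had enough reads to be tested. Lcn2 rose in both models at P7, by 3.59 ± 0.48 (log2 fold change ± standard error) with loss of Pkd1 and by 2.78 ± 0.43 with loss of Pkd2. Anxa2 passed as higher in the Pkd1 model and Sox9 in the Pkd2 model at P7, but no member passed a direct test between the models. In the Pkd1 model at P7, genotype and sex cannot be told apart. At P1 and P3, 0 of the 6 passed, where at most 0.00798% of all transcripts did.

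The control (WT) mice were Pkd1f/f or Pkd2f/f, and the knockout (KO) mice were Pkd1f/f:HoxB7-Cre or Pkd2f/f:HoxB7-Cre, all on a C57BL/6 background. Kidneys were taken at postnatal day 1 (P1), 3 (P3) or 7 (P7), with 3 libraries in each of the 12 groups. All 36 libraries carry the floxed alleles, and the genotype of KO differs from that of WT by the Cre transgene. In some comparisons KO and WT kidneys also differed in sex, as given below. HoxB7-Cre acts in the collecting duct, while RNA came from the kidney, so most cells in each library kept the floxed gene. In such bulk libraries, fewer cells of a type and less RNA per cell cannot be told apart. The libraries held 7179152 to 15850818 counted reads.

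When tubule cells are damaged they lose transporters, re-enter a more embryonic state and secrete proteins that can be found in urine. Lcn2 (lipocalin-2, NGAL) is a secreted protein that binds iron-carrying siderophores. Spp1 (osteopontin) is a secreted integrin ligand, and Clu (clusterin) is a secreted chaperone. Havcr1 (KIM-1) is a surface receptor through which injured proximal tubule cells take up dying cells. Vcam1 is an adhesion receptor for leukocyte integrins that is made by endothelium and by proximal tubule cells that fail to recover. Anxa2 (annexin A2) binds calcium and membrane phospholipids and organizes actin at the membrane. Sox9 is a transcription factor of the growing ureteric and nephron epithelium that is switched on again in repairing tubules.

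Lcn2 and Anxa2, the members that rose in the Pkd1 model, had a promoter window in the RefSeq sequences of GRCm38.p6, from 250 bases before to 50 bases after the transcript start. Motifs of AP-1 (the letters TGANTCA), STAT (TTCNNNGAA), NF-kB and the TATA box were searched on both strands. The matches in these windows did not overlap each other. The Lcn2 window held 1 match, to the NF-kB letters, 102 bases before the start. The Anxa2 window held an AP-1 match 95 bases before the start, a TATA box 17 bases before it and an NF-kB match 8 bases after it. Each match is shown in capitals with the bases around it, to let the 2 genes be compared.
Lcn2, NF-kB letters, chr2:32387823-32387850, minus strand: gtaaaggatGGACTACCCCgcccaacag
Anxa2, AP-1 letters, chr9:69453579-69453603, plus strand: caagttggaTGAGTCAcccagcagg
Anxa2, TATA box, chr9:69453657-69453680, plus strand: tggggcgggTATAAAagccccacc
Anxa2, NF-kB letters, chr9:69453682-69453709, plus strand: agcccagccGGGCTGCTCCgcttcaagg
Over 32851 mouse promoter windows of the same length, 50.8% held the NF-kB letters, 7.81% the AP-1 letters, 8.30% the STAT letters and 13.6% the TATA box. A match is a description of these letters, and binding was not measured. Spp1 and Havcr1 also had windows. A first Spp1 window held a TATA box 211 bases before the start and the second none of the 4 motifs. Of the 3 Havcr1 windows, 1 held AP-1 letters, 10 bases after the start.

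The counting decided what could be seen of Havcr1 and Spp1. Reads had been counted per RefSeq transcript, and a gene with several overlapping transcripts kept few reads. Rows without a single read in the 36 libraries made up 15.3% of the rows of the 15732 genes with 1 transcript, 44.2% of the rows of genes with 2 and 66.6% of those with 3 or more. Gapdh, named here after its values were seen and abundant in every tissue, averaged 1.81 counts on one of its rows and 0.0278 on the other.

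**Figure D1:**
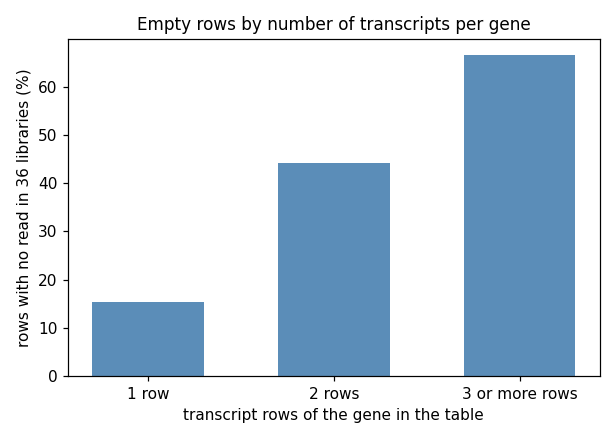
Share of transcript rows without a read in any of the 36 libraries (vertical axis, percent), for genes with 1, 2, and 3 or more rows in the table (bars). The share rises from 15.3% to 66.6%, and Havcr1 (3 rows) and Spp1 (5 rows) lie in the bar with most empty rows.

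Havcr1 (chromosome 11, 46739822 to 46779578) had 3 transcripts in the table. The one used, NM_001166632, collected 4 counts over all 36 libraries, never more than 1 in a library, and 32 libraries were at 0. The other transcripts collected 2 and 0 counts. A count of 0 allows up to 3 counts in a library, and this covers counting error only. Havcr1 therefore could not be measured in these data, and no statement about KIM-1 transcripts in either model follows from it.

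Spp1 (chromosome 5, 104435111 to 104441053) had 5 transcripts, of which 4 were at 0 in every library. The fifth, NM_001204233, has 183 exon bases that no other row shares, and all 312 counts of the gene fell on this row, at most 33 in a library. Its values describe that transcript's own stretch and not the amount of osteopontin RNA. At P7 it had 24.3, 17.3 and 3.7 normalized counts in the Pkd1 KO kidneys (replicates 1, 2 and 3) against 6.3, 5.3 and 8.5 in WT. Pkd2 kidneys at P7 had 25.3, 34 and 20.1 in KO and 9.2, 13.3 and 10.9 in WT. Normalized counts are reads divided by library size and TMM factor, set over the 18 libraries of each model. The Pkd2 KO kidneys were all above the WT kidneys, whereas in the Pkd1 model 1 KO kidney was below all WT kidneys. The log2 fold changes were 1.16 ± 0.68 (adjusted p = 0.264) and 1.24 ± 0.35 (adjusted p = 0.0538), and neither passed edgeR's quasi-likelihood test. At P1 and P3 the row had 0 to 10.2 normalized counts, and its log2 fold changes had 95% intervals as wide as -2.90 to 1.90.

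The other 5 members had 1 transcript each, so none of their reads could be split between isoforms of the table. Anxa2 and Clu were the most abundant per length in every group. In WT kidneys at P7, normalized counts per kilobase of transcript were 4227 ± 189.9 (SD, n = 3) for Anxa2, 2265 ± 76.0 for Clu, 279 ± 76.1 for Vcam1, 138 ± 80.3 for Lcn2 and 38.3 ± 10.7 for Sox9 in the Pkd1 model. For Pkd2 they were 4733 ± 656 for Anxa2, 3087 ± 925 for Clu, 348 ± 244 for Lcn2, 341 ± 62.5 for Vcam1 and 20.2 ± 4.9 for Sox9. The levels of Lcn2 and Vcam1 in this order did not differ beyond their spread in the Pkd2 model. In P7 KO kidneys Lcn2 stood next after Anxa2 and Clu, at 1650.1 ± 829 per kilobase with loss of Pkd1 and at 2378 ± 179 with loss of Pkd2. The Pkd1 KO level of Lcn2 was within its spread of that of Clu, 2478 ± 684.

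KO and WT were compared at each day to ask when in cyst growth these genes respond. At P7, 2 of the 6 tested members passed in the Pkd1 model, Lcn2 and Anxa2, where 13.5% of all 12527 transcripts tested passed, 6.32% as higher and 7.14% as lower. Lcn2 and Sox9 passed for Pkd2, 2 of 6, beside 14.1% of 12633 transcripts, 7.88% as higher and 6.17% as lower. The median log2 fold change of the 6 was 0.75 for Pkd1 and 0.81 for Pkd2, while that of all transcripts was 0.00 in both. Only Vcam1 had a negative value in both models. At P1 and P3, no member passed in either model, where the share of all transcripts that passed was 0% in 3 of the 4 comparisons and 0.00798% in Pkd1 KO at P3. Unadjusted p values under 0.05 were found for 157 transcripts in Pkd1 and 708 in Pkd2 at P1, and for 1748 and 565 at P3. DESeq2 called 2 and 33 transcripts at P1 and 248 and 38 at P3, no member among them.

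**Figure D2:**
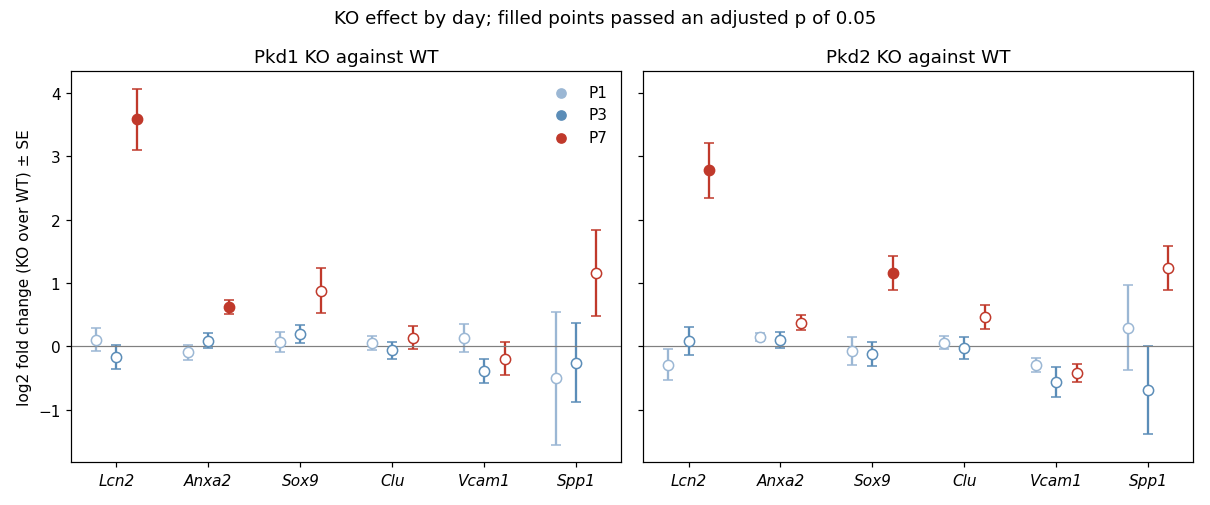
Log2 fold change of KO over WT with its standard error (vertical axis) for the 6 tested members (horizontal axis) at P1, P3 and P7 (colours), in the Pkd1 model on the left and the Pkd2 model on the right, 3 libraries per group. Filled points have an adjusted p under 0.05. Lcn2 at P7 stands at 3.59 and 2.78 and the P1 and P3 points of the members other than Spp1 lie between -0.56 and 0.20.

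Sex was not balanced between the P7 groups of the Pkd1 model. Counts on Ddx3y, Eif2s3y, Kdm5d and Uty, genes of the Y chromosome, were 3926 to 5041 in 18 libraries and at most 5 in the other 18. All 3 Pkd1 KO kidneys at P7 had them and all 3 WT kidneys lacked them, so that for Pkd1 at P7 genotype and sex cannot be told apart. A fit of all 18 Pkd1 libraries took the presence of these counts as a covariate. There the log2 fold change of Lcn2 at P7 was again 3.59 but its adjusted p was 0.0560. That of Anxa2 was 0.44 (adjusted p = 0.382), and no member passed. Of all 12527 transcripts, 6 passed in that fit, beside 1686 in the fit of the P7 kidneys alone. Only the P1 WT group of this model held kidneys both with and without Y-linked counts. The covariate was therefore estimated from that group alone, and this fit cannot separate sex from genotype at P7. Among Pkd2 kidneys, only WT replicate 2 had Y-linked counts at P1 and only WT replicate 1 at P3. At P7 of the Pkd2 model, WT replicate 3 was the only one of the 6 kidneys without them. Without this kidney, 5 members passed in the Pkd2 model, beside 2059 of 12633 transcripts. With all 6 kidneys, 1776 transcripts had passed. The 5 members were Lcn2 (3.48), Clu (0.74), Sox9 (1.03, adjusted p = 0.0421), Anxa2 (0.49) and Vcam1 (-0.55).

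The deleted genes were a weak check of the labels. In the Pkd1 model the Pkd1 transcript differed between KO and WT by -0.20, -0.07 and 0.10 on the log2 scale at P1, P3 and P7 and did not pass. The Pkd2 transcript fell by 0.29 in Pkd2 KO kidneys at P7 (adjusted p = 0.0115) and differed by -0.21 and 0.02 at P1 and P3. Markers of the kidney were present in all groups. In P7 WT kidneys the summed proximal tubule markers reached 64502 to 83313 normalized counts and the collecting duct markers 18029 to 23676.

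Lcn2 (NM_008491, 915 bases, chromosome 2, 32384637 to 32387739) had the largest log2 fold change of the 6 tested members at P7 in both models. At P7 the Pkd1 KO kidneys had 2350.4, 1304 and 875 normalized counts and the WT kidneys 69.1, 209 and 101. The Pkd2 KO kidneys had 2048, 2361 and 2119.6 and the WT kidneys 263, 128 and 564. Every KO kidney lay above every WT kidney in both models, and such separation upward was seen for 19.1% of all transcripts in the Pkd1 and 19.2% in the Pkd2 comparison. The KO values were widely spread in the Pkd1 model and close together in the Pkd2 model, where the WT values were the ones that spread.

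The rise of Lcn2 amounted to 12-fold in the Pkd1 model (log2 fold change 3.59, 95% interval 2.49 to 4.69, adjusted p = 0.00762). With loss of Pkd2 it was 6.86-fold (2.78, 1.79 to 3.77, adjusted p = 0.00645). It passed in all 6 fits that left out 1 library in each model, with log2 fold changes of 3.11 to 4.16 in Pkd1 and 2.39 to 3.48 in Pkd2. The highest of the latter came without WT replicate 3 of the Pkd2 model (adjusted p = 0.000228).

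Before P7 Lcn2 showed no such gap. At P1 the Pkd1 KO kidneys had 329, 259 and 270.2 normalized counts and the WT kidneys 313, 268 and 218. The Pkd2 kidneys at P1 had 231, 169 and 149 in KO and 156, 238 and 273 in WT. KO and WT overlapped in both models, and they did so at P3, where all 12 values lay between 158 and 303. The 95% intervals of the log2 fold change reached from -0.83 to 0.61 over these 4 comparisons. The KO effect at P7 exceeded that at P1 by 3.47 ± 0.50 in the Pkd1 model (adjusted p = 0.00148 in edgeR's interaction test) and by 3.07 ± 0.52 in the Pkd2 model (adjusted p = 0.00701). At P3 against P1 no member passed in either model. Of all transcripts, 7.75% passed this test of the effect at P7 against P1 in the Pkd1 and 1.3% in the Pkd2 model.

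Lcn2 is also made by neutrophils, so neutrophil markers were examined beside it. Their summed level was low, 118 to 272 normalized counts in Pkd1 KO and 36 to 66.4 in WT kidneys at P7. The Pkd2 kidneys at P7 had 35.8 to 95.3 in KO and 62.4 to 75.0 in WT. None of the 6 markers tested in the Pkd1 and the 7 in the Pkd2 model passed. S100a8, a calcium-binding protein that fills the neutrophil cytosol, had 50.2 ± 2.7 in Pkd1 KO and 16.4 ± 10.4 in WT kidneys. Its partner S100a9 was at 0 in every P7 library, but it has 2 transcripts in the table and is open to the same loss of reads as Havcr1. The neutrophil sums of KO and WT overlapped in the Pkd2 model and not in the Pkd1 model. The part of neutrophils in the Lcn2 values was not tested in either model.

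**Figure D3:**
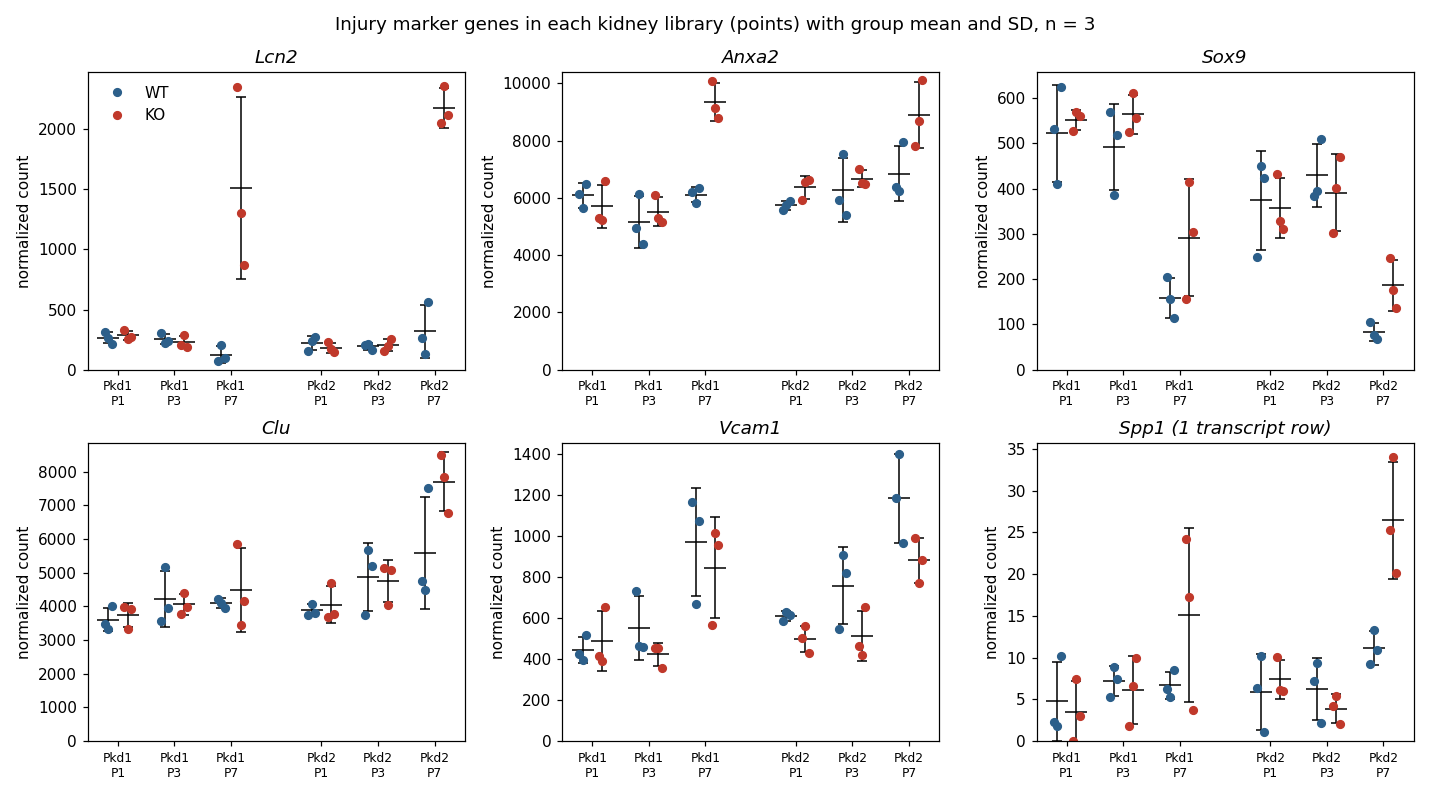
Normalized count of each member in every library (points), with the group mean and SD (black, n = 3), for WT (blue) and KO (red) kidneys of both models at P1, P3 and P7. KO and WT points of Lcn2 are apart at P7 in both models, Sox9 falls between P3 and P7, and WT replicate 3 of Pkd2 at P7 is the highest WT point of its group for Lcn2, Clu and Anxa2.

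Clu (NM_013492, 1810 bases, chromosome 14, 65968483 to 65981548) was abundant and did not pass between KO and WT at any day in the edgeR fits of the 6 kidneys of one day and model. The Pkd1 KO kidneys at P7 had 5849.6, 3436 and 4169.8 normalized counts and the WT kidneys 4232, 4109.9 and 3957, so the groups overlapped. The log2 fold change was 0.14 ± 0.19 (95% interval -0.29 to 0.57, adjusted p = 0.632). Pkd2 KO kidneys had 8503, 7852 and 6773 and the WT kidneys 4757, 4491 and 7514. KO exceeded WT apart from WT replicate 3, which lay among the KO kidneys. Its log2 fold change, 0.46 ± 0.19, missed the threshold (adjusted p = 0.149). Without that kidney it was 0.74 (adjusted p = 0.00206), and in the fit of all 18 Pkd2 libraries with the Y-linked covariate it was 0.62 (adjusted p = 0.0216). At P1 and P3 the 24 kidneys had 3318 to 5679 normalized counts with no separation of KO and WT.

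Anxa2 (NM_007585, 1447 bases, chromosome 9, 69453683 to 69491792) rose by less than a doubling, from a high level. At P7 the Pkd1 KO kidneys had 10094, 9123 and 8802 normalized counts and the WT kidneys 6211, 5807 and 6332. All KO kidneys were above all WT kidneys, and the log2 fold change was 0.62 ± 0.11, or 1.53-fold (adjusted p = 0.0154). The call was lost without KO replicate 1 (adjusted p = 0.0621) and without WT replicate 1 (adjusted p = 0.0786). Pkd2 KO kidneys had 7823, 8701 and 10107 and the WT kidneys 6365, 6240.2 and 7942, with 1 WT kidney above the lowest KO kidney. Here the log2 fold change was 0.37 ± 0.12 and missed the threshold (adjusted p = 0.0817). It passed without WT replicate 3 (0.49, adjusted p = 0.0151), in DESeq2 (adjusted p = 0.0176) and with the replicate number as a block (adjusted p = 0.0238). It also passed when all 18 Pkd2 libraries shared one fit, without the Y-linked covariate (adjusted p = 0.0486) and with it (adjusted p = 0.0293).

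The KO effect on Anxa2 grew from P1 to P7 in the Pkd1 model, by 0.71 ± 0.17 (adjusted p = 0.0223 in the interaction test), and the call was lost in 3 of the 12 fits that left out 1 library. For Pkd2 the difference was 0.22 ± 0.17 (adjusted p = 0.560). All 3 Pkd2 KO kidneys already lay above WT at P1, with 5917, 6567 and 6634 against 5563, 5755 and 5894 normalized counts. That difference of 0.15 ± 0.07 did not pass (adjusted p = 0.864), and 5.79% of all transcripts were separated upward in this comparison.

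Sox9 (NM_011448, 4135 bases, chromosome 11, 112782210 to 112787757) fell with age in WT kidneys of both models and was higher in Pkd2 KO than in Pkd2 WT kidneys at P7. Pkd1 WT kidneys had 532, 409 and 623 normalized counts at P1 and 204, 156 and 115 at P7. Pkd2 WT kidneys had 248, 450.4 and 423 at P1 and 106, 76.9 and 67.4 at P7. WT kidneys at P7 were below all WT kidneys at P1 in both models. The log2 fold change of P7 against P1 in WT was -1.72 ± 0.25 in the Pkd1 model (adjusted p = 0.00605) and -2.18 ± 0.27 in the Pkd2 model (adjusted p = 0.0020), and it passed in all 6 fits that left out 1 library in each model. Among all transcripts, 12.1% of the Pkd1 and 25.3% of the Pkd2 comparison of WT ages passed. Age and library preparation cannot be told apart there, and sex differed as well. Of the Pkd1 WT kidneys, replicates 1 and 3 had Y-linked counts at P1 and none had them at P7. Of the Pkd2 WT kidneys, replicate 2 had them at P1 and replicates 1 and 2 at P7.

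In KO kidneys at P7, Sox9 reached 156, 413 and 305 normalized counts with loss of Pkd1 and 247, 177 and 136 with loss of Pkd2. The Pkd2 KO kidneys were above all WT kidneys of that day, and the Pkd1 KO kidneys overlapped with WT through replicate 1. The log2 fold change was 1.16 ± 0.26 in the Pkd2 model, or 2.23-fold (adjusted p = 0.0260), and 0.88 ± 0.35 in the Pkd1 model (adjusted p = 0.122). With 1 library left out, Pkd2 calls remained in 3 of 6 fits. The call was lost without KO replicate 1 (adjusted p = 0.0620), KO replicate 2 (adjusted p = 0.0684) or WT replicate 2 (adjusted p = 0.0705). Between Pkd1 KO and WT kidneys at P7, Sox9 passed when all 18 libraries shared one fit (adjusted p = 0.0243). The KO effect at P7 exceeded that at P1 by 0.80 ± 0.38 in Pkd1 (adjusted p = 0.191) and by 1.23 ± 0.37 in Pkd2 (adjusted p = 0.123), and neither passed edgeR's test with all libraries. The Pkd1 difference passed without P7 KO replicate 1 (1.11, adjusted p = 0.0451). The Pkd2 difference passed in DESeq2 (adjusted p = 0.0318) and without P1 WT replicate 1 (1.45, adjusted p = 0.0382).

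Sox9 also marks the ureteric tips and nephron progenitors of the newborn kidney, and 6 of their other markers were examined beside it. Their summed level at P7 was 14.9 to 34.4 normalized counts in Pkd1 KO and 5.7 to 22 in WT kidneys, and 8.4 to 15.9 against 8.5 to 18.5 in the Pkd2 model. At P3 the sums had been 323 to 833. Eya1 and Gdnf, with 2 and 4 transcripts in the table, were at 0 in all P7 libraries, and none of the 3 markers tested passed between KO and WT at P7 in either model.

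Vcam1 (NM_011693, 3469 bases, chromosome 3, 116110020 to 116129688) was the only tested member whose mean was lower in KO than in WT kidneys at P7 in both models. In WT kidneys it rose with age, from 422, 393 and 515 normalized counts at P1 to 1164, 669 and 1075 at P7 in the Pkd1 model, and from 584, 628 and 616 to 1185, 1399 and 966 in the Pkd2 model. The log2 fold change of P7 against P1 was 1.13 ± 0.22 (adjusted p = 0.0163) and 0.93 ± 0.12 (adjusted p = 0.00250). With 1 library left out, the Pkd2 call stood in 6 of 6 fits and the Pkd1 call in 3 of 6. As for Sox9, the WT kidneys of the 2 ages also differed in library preparation and sex.

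In KO kidneys at P7 Vcam1 had 564, 1016 and 957 normalized counts in the Pkd1 model, where KO and WT overlapped. The Pkd2 KO kidneys had 989.7, 771 and 882, and 1 of them was above the lowest WT kidney. The log2 fold changes were -0.19 ± 0.26 (adjusted p = 0.639) and -0.43 ± 0.14 (adjusted p = 0.0871). The Pkd2 difference passed in DESeq2 (adjusted p = 0.0179) and without WT replicate 3 (-0.55, adjusted p = 0.0170). KO kidneys lay below WT kidneys without overlap for Pkd1 at P3 and for Pkd2 at P1, with log2 fold changes of -0.38 and -0.29 that did not pass. Separation downward was seen for 10.7% and 5.53% of all transcripts in these comparisons.

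Vcam1 is carried by endothelium and by macrophages of some tissues, and markers of both were examined beside it. The summed endothelial markers were 6592 to 7928 normalized counts in Pkd1 KO against 8361 to 10329 in WT, and 7504 to 8766 against 10196 to 11000 in the Pkd2 model. Of the tested endothelial markers, 0 of 4 passed in Pkd1 and 3 of 5 were lower in Pkd2, beside 7.14% and 6.17% of all transcripts lower. The 3 were Flt1 (-0.56), Kdr (-0.44) and Tie1 (-0.43), receptors of endothelial growth factors. Pecam1 and Tek, with 4 and 3 transcripts in the table, were at 0 in these libraries. Macrophage markers summed to 5088 to 6145 in Pkd1 KO against 3202 to 4249 in WT, and to 5469 to 7316 against 3350.2 to 3933 in Pkd2, with 2 of 7 and 5 of 7 higher, beside 6.32% and 7.88% of all transcripts. In the Pkd1 model the 2 were C1qa (1.28) and C1qb (0.97). There Mrc1 (0.63), Lyz2 (0.56), Cd68 (0.20), Csf1r (0.12) and Adgre1 (-0.09) did not pass, so the sum did not rise evenly over its markers. The part of these cells in the Vcam1 values was not tested.

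**Figure D4:**
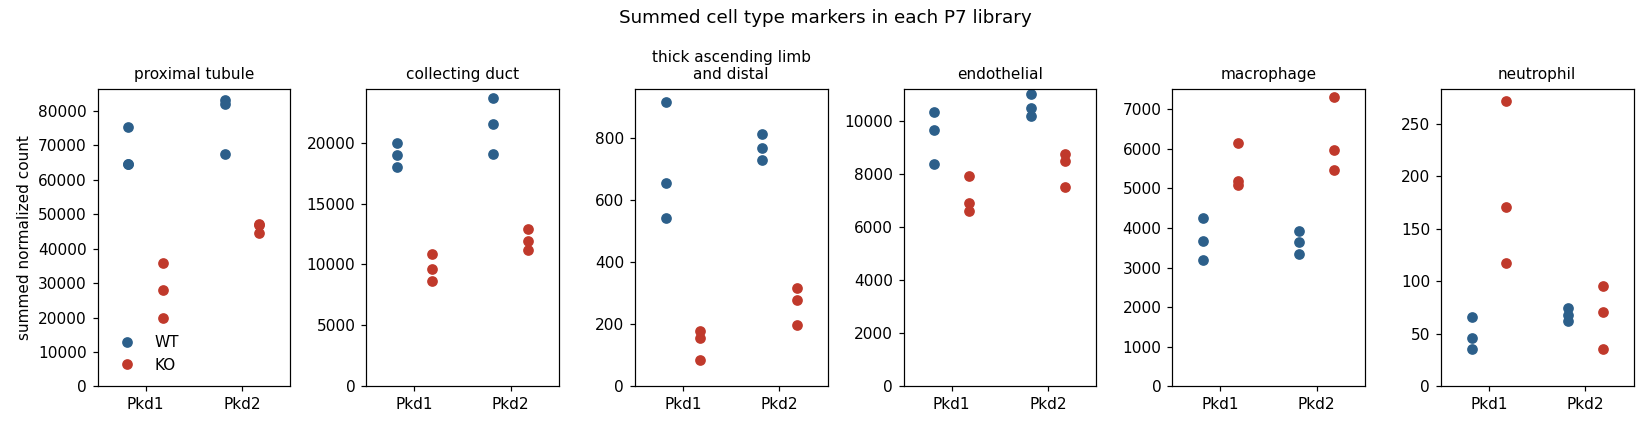
Sum of the normalized counts of the markers of 6 cell types (panels) in each P7 library (points) for WT (blue) and KO (red) kidneys of both models, each axis from 0. Proximal tubule, collecting duct, thick ascending limb and endothelial sums are lower in all KO than in all WT kidneys, macrophage sums are higher, and neutrophil sums are apart in the Pkd1 model only.

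The models were compared directly at P7, in one fit of the 12 kidneys. No member differed in its KO effect, and 0% of 12343 transcripts did, while 2130 had an unadjusted p under 0.05 and DESeq2 called 406. The difference, Pkd1 minus Pkd2, was 0.82 for Lcn2 (95% interval -0.72 to 2.37) and 0.26 for Anxa2 (-0.11 to 0.62). For Sox9 it was -0.27 (-1.32 to 0.79), for Clu -0.31 (-0.96 to 0.34), for Vcam1 0.24 (-0.49 to 0.97) and for the Spp1 row -0.07 (-1.87 to 1.74). Anxa2 passed in one model only and Sox9 in the other only, and these intervals leave room for no difference as well as for a large one in Lcn2 and Sox9.

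The members were set beside 48 other genes known from injured or repairing tubules. Of these, 38 were tested in the Pkd1 model, and at P7 17 were higher and 1 lower in KO, with a median log2 fold change of 0.79. For Pkd2, 37 were tested, 18 were higher and 0 lower, with a median of 0.71. Of all transcripts at P7, 6.32% were higher and 7.14% lower in Pkd1 KO, and 7.88% and 6.17% in Pkd2 KO. The same 12 genes were higher in both models. At P1 and P3 none passed in either model, where at most 0.00798% of all transcripts did. The list was chosen with results of these data known, and its count is a description.

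Among the secreted genes of that list, Ccl2, a chemokine that attracts monocytes, rose from 12.1 ± 2.7 to 118 ± 21.0 normalized counts in the Pkd1 model (log2 fold change 3.28, adjusted p = 0.00261) and from 10.6 ± 5.7 to 66.1 ± 13.9 in the Pkd2 model (2.61, adjusted p = 0.00528). Gdf15, a stress-induced hormone, rose by 2.38 and by 1.77. Krt19, a keratin of simple epithelia, rose by 2.56 in the Pkd1 model (adjusted p = 0.0158) and had a log2 fold change of 1.27 in the Pkd2 model (adjusted p = 0.203). C3, the central component of complement, rose by 1.37 in the Pkd2 model (adjusted p = 0.0445) and had a log2 fold change of 1.07 in the Pkd1 model (adjusted p = 0.181). Sox4, a transcription factor related to Sox9 through its DNA-binding domain, was the 1 gene that fell in Pkd1 KO (-1.27, adjusted p = 0.0469), and its log2 fold change in the Pkd2 model was -0.04 (adjusted p = 0.820).

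**Figure D5:**
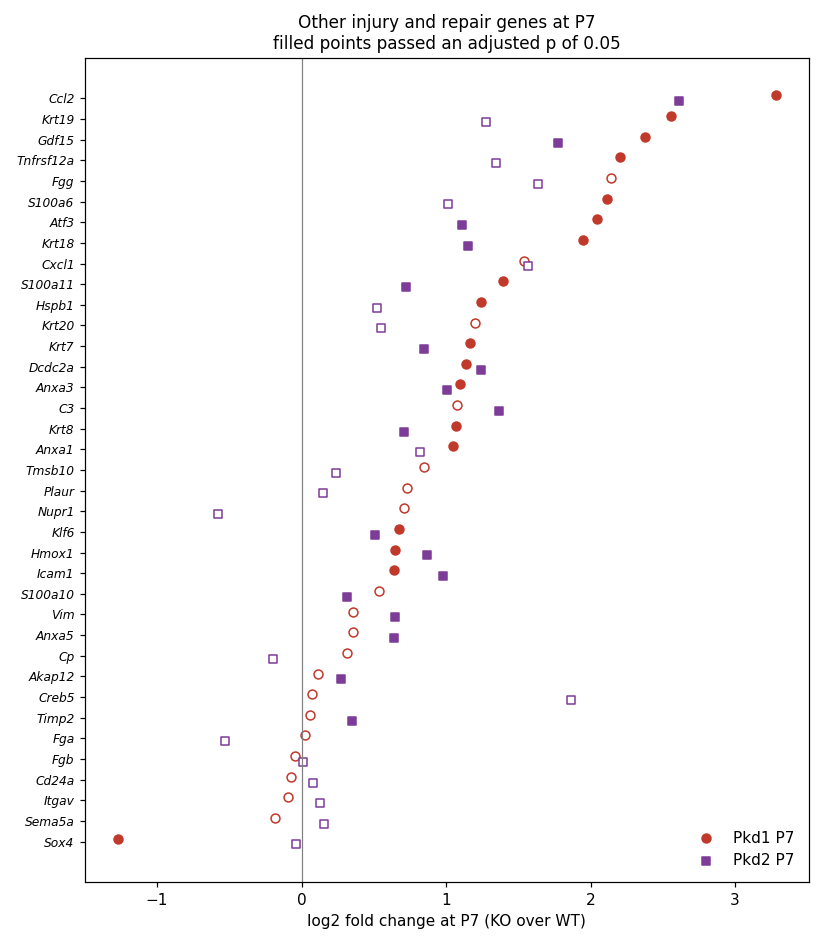
Log2 fold change of KO over WT at P7 (horizontal axis) of the 37 other injury and repair genes tested in both models (vertical axis, ordered by the Pkd1 value), in the Pkd1 (circles) and the Pkd2 model (squares). Filled points passed an adjusted p of 0.05. Ccl2 is at the top with 3.28 and 2.61, and Sox4 at the bottom with -1.27 and -0.04.

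Among partners of the member proteins, Lrp2, the megalin receptor by which the proximal tubule takes up lipocalin-2 from the filtrate, fell by 1.47 in the Pkd1 model (adjusted p = 0.0122) and by 0.64 in the Pkd2 model (adjusted p = 0.0118). Itga4, a subunit of the integrin that binds Vcam1, fell by 0.74 in Pkd1 KO (adjusted p = 0.0229) and had a log2 fold change of -0.41 in Pkd2 KO (adjusted p = 0.0551). S100a10, which forms a complex with annexin A2, rose by 0.32 in Pkd2 KO (adjusted p = 0.0459), and Itgb1, a subunit of osteopontin-binding integrins, by 0.31 (adjusted p = 0.0293). In Pkd1 KO their log2 fold changes were 0.53 (adjusted p = 0.0897) and 0.24 (adjusted p = 0.262). Of 10 partners tested, 0 were higher and 2 lower in the Pkd1 model, and 2 were higher and 1 lower in the Pkd2 model. Among all transcripts, 6.32% were higher and 7.14% lower in the Pkd1 model, and 7.88% and 6.17% in the Pkd2 model.

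Of the family relatives of the members, 3 of 11 tested were higher in the Pkd1 model, beside 6.32% of all transcripts. They were Anxa3 (1.10) and Anxa1 (1.05), both annexins, and Icam1 (0.64), an adhesion receptor like Vcam1. In the Pkd2 model 4 of 12 were higher, beside 7.88% of all transcripts, led by Anxa3 (1.01), Icam1 (0.98) and Anxa5 (0.64), and none was lower in either model. Anxa1, Anxa3, Anxa5 and Icam1 are also in the list of injury and repair genes above, so these counts are not separate from its counts. Icam1 passed as higher in both models at P7, and Vcam1 in neither.

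Across the 36 libraries, log2 values of TMM-scaled counts were correlated between each of the 5 well-counted members and 9587 genes. The libraries share group and age, so these values are descriptions. Lcn2 was most like Igfbp2 (Pearson's r = 0.88), Pmaip1 (0.88) and Rgs16 (0.86). Anxa2 was most like Gpx8 (0.92), Cdc42 (0.91) and Dstn (0.90), and Clu like Anxa5 (0.78), Htra1 and Mmd (0.77 each). Sox9 was most like Sox11, Ncs1 and Cdca7 (0.94 each), and Vcam1 like Plekha2 (0.88), Ddn (0.84) and Grid1 (0.82). Between members, r was 0.72 for Lcn2 with Anxa2, 0.58 for Lcn2 with Clu and -0.65 for Sox9 with Vcam1. Lcn2 with Sox9 had an r of -0.18 over all libraries.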

How the data were processed

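RNA-seq of kidney was analysed in 36 libraries. The authors mapped reads to mm10 with TopHat2 2.1.0 and counted them on RefSeq transcripts with HTSeq, and deposited raw counts, with no filter or normalization. Symbols and positions came from RefSeq for GRCm38.p6, the assembly of mm10 (28978 of 29996 rows), and 28877 rows could be given a transcript length and a GC content. Counts from overlapping transcripts of a gene were not summed in the table. Columns of no sample numbered 0.

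A transcript entered the tests of a model if 3 or more of its 18 libraries had 10 counts or more. The test was that of edgeR 4.0.16 (quasi-likelihood test, TMM, Benjamini-Hochberg adjustment at 0.05) in R 4.3.3, one day and model at a time, and differences of effects as interactions. The standard error is the log2 fold change over the square root of F. The 95% intervals use the total degrees of freedom of edgeR's test, which are the residual ones plus those gained from sharing information across transcripts. Tables and plots were made in Python 3.11.15 (pandas 2.3.3, matplotlib 3.10.9). Alternatives were DESeq2 1.42.0, RLE factors, no filter, a replicate block, all 18 libraries in one fit, a Y-linked covariate (over 100 counts), counts summed per gene, GC and length correction, and leaving out each library. The steps were tested on simulated data.

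The members and lists were chosen with earlier results of these data known. Named besides the members are, per list and model at P7, the 3 largest rises and falls among called rows whose higher group averaged 50 normalized counts or more, and the 3 genes most like each member. One gene of the injury and repair list is not reported here and was left out of the list's counts.

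Median depth was 13143336 counts. Replicates differed by 4.89 to 59.3 in chi-square per transcript over 36 pairs, which counting error alone would hold near 1, so that precision rests on how far libraries differ. The labels do not say which mice share a litter, and p-values measure the spread between these samples. Same-numbered KO and WT libraries deviated together in every pair for Pkd1 at P1 (correlations 0.177 to 0.477), so there the numbers were taken to pair the samples, and the block called 4 transcripts and no member. In the other 15 pairs correlations were -0.173 to 0.143.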

Additional observations from a re-analysis of the deposited data

Results flagged for a closer look

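KO effects on members differed between ages of the same model, by edgeR's test of the interaction of genotype and day. For Lcn2 the effect at P7 exceeded that at P1 by 3.47 on the log2 scale in the Pkd1 model and by 3.07 in the Pkd2 model. For Anxa2 the difference was 0.71 in the Pkd1 model. At P7 all Pkd1 KO kidneys carried Y-linked counts and all WT kidneys lacked them, while at P1 no KO kidney and 2 of 3 WT kidneys had them, so in the Pkd1 model sex and genotype cannot be told apart in these differences. In the Pkd2 model at P7, 5 of 6 kidneys had them, all but WT replicate 3. At P1 of that model only WT replicate 2 had them. Sex therefore also shifted with day and genotype in the Pkd2 difference of Lcn2, and its part was not tested.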

How the results depend on the processing

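In the Pkd1 model at P7, 2 members passed under every other setting except the fit of all 18 libraries, which added Sox9 (3), and that fit with the Y-linked covariate (0). In the Pkd2 model at P7 the 2 members became 4 with DESeq2 (Vcam1 and Anxa2 added), 3 with the block and 3 in the fit of all 18 libraries (Anxa2 added to each), and 4 with the Y-linked covariate (Clu and Anxa2 added). Of all 12633 transcripts, these settings called 2254, 1515, 1686 and 1543 in that order, beside 1776 in the main fit. For the KO effect at P7 against P1 in the Pkd2 model, 1 member became 2 with DESeq2 (Sox9 added). Over all named values of the members, 336 of 357 under other settings kept direction and call, 10 gained the call, 2 lost it, and 9 changed sign without a call in either fit. When a library was left out, 577 of 648 kept both, 8 gained and 11 lost the call, and 52 changed sign without a call. The causes were not tested.

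DESeq2 called 2, 248 and 2763 transcripts in Pkd1 at P1, P3 and P7 (edgeR 0, 1 and 1686), 33 and 38 in Pkd2 at P1 and P3 (edgeR 0 and 0), 1651 and 491 for the effect at P7 against P1 in Pkd1 and Pkd2 (edgeR 971 and 164), 12 for P3 against P1 in Pkd1 (edgeR 0) and 406 for the model difference (edgeR 0). The replicate block called 4, 2 and 704 in Pkd1 at P1, P3 and P7, 1 and 2 in Pkd2 at P1 and P3, 4 for P3 against P1 in Pkd1 and 78 for P7 against P1 in Pkd2; it left the calls of the members between KO and WT as they were, except that Anxa2 passed in Pkd2 at P7. One fit of all 18 libraries called 4, 0 and 3882 in Pkd1 and 2 in Pkd2 at P3. With the Y-linked covariate it called 0 and 6 in Pkd1 at P3 and P7. In Pkd1 at P3, no filter gave 4 and the GC and length correction 2.

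Leaving out each library moved the members called to 1 to 2 (Pkd1 P7), 1 to 5 (Pkd2 P7), 1 to 2 (P7 against P1, each model), 1 to 3 (Pkd1 WT ages) and 2 to 3 (Pkd2 WT ages). Transcripts called ranged over 0 to 4 (Pkd1 P1), 0 to 19 (Pkd1 P3), 156 to 3191 (Pkd1 P7, lowest without WT replicate 1 and highest without WT replicate 3), 0 to 3 (Pkd2 P3), 667 to 2059 (Pkd2 P7, without WT replicates 1 and 3), 314 to 2182 and 89 to 338 (P7 against P1 in Pkd1 and Pkd2), 0 to 8 (P3 against P1 in Pkd1), 0 to 1449 (model difference), 503 to 1635 and 1487 to 3559 (WT ages in Pkd1 and Pkd2). Few counted reads limited Spp1 and Havcr1. WT ages were not fitted with the block, since the numbers name different mice.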

Other observations

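Markers of other tubule segments were mostly lower in KO than in WT kidneys at P7, where 7.14% of all transcripts were lower in Pkd1 KO and 6.17% in Pkd2 KO. Of 7 proximal tubule markers tested, 6 were lower in Pkd1 KO and 7 in Pkd2 KO, among them Aqp1, a water channel (-2.04 and -0.95), and Miox, which breaks down inositol (-1.55 and -1.08). Egf, the growth factor of the thick ascending limb and distal tubule, fell by 2.32 and by 1.59. Of 7 collecting duct markers 5 were lower in each model, including Aqp2, the water channel of principal cells (-2.27 and -2.38), and Gata3, a transcription factor of the duct, was higher in Pkd1 KO (0.67). Acta2, smooth muscle actin, rose by 1.42 and 1.75. Other stromal genes went both ways, with Col1a1 higher (0.89) and Lum lower (-1.21) in Pkd2 KO. Of 5 podocyte markers, 1 was lower in Pkd1 KO and none passed in Pkd2 KO. Slc4a1, the only gene of the red blood cell list that could be tested, was lower in both. The haemoglobin genes of that list had no reads at P7, so the content of red blood cells was not measured.

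At P3, 1 of the 3 Pkd2 WT kidneys had a macrophage marker sum of 5262 normalized counts and the others 1918 and 2204. The highest neutrophil marker sum among these 3 kidneys was 531.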
